A study of Homo sapiens with 6 samples.

Results

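Endothelial to mesenchymal transition is the process in which endothelial cells lower their junction and identity genes and take on genes of fibroblasts and smooth muscle. It is driven in many settings by TGF-beta and by the zinc finger factors of the Snail and ZEB families and the bHLH factor TWIST1, which bind E-box sequences and repress junction genes such as cadherins. Vimentin, S100A4 and the smooth muscle proteins encoded by ACTA2, TAGLN and CNN1 are its usual readouts. In cultured endothelium vimentin is also the normal intermediate filament, so its transcript is abundant before any transition.

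The 10 genes examined here were taken by name as the transition's transcription factors (SNAI1, SNAI2, TWIST1, ZEB1, ZEB2), its filament and calcium-binding markers (VIM, S100A4) and its contractile genes (ACTA2, TAGLN, CNN1), out of 17573 uniquely named genes. Of the 10, 8 had a row of their own and are described below, and TWIST1 and CNN1 were not analysed here. Their levels were measured by RNA sequencing in primary human umbilical vein endothelial cells (HUVECs) grown in serum-containing M199 medium. The cells were transfected by lipofection with 8OH-G miR-483, a microRNA carrying the oxidised base 8-oxoguanine (3 libraries), or with unmodified miR-483 (3 libraries), and RNA was taken on day 2. Both groups therefore received a miR-483 mimic, and a difference between them can come from either form. A scramble control named in the labels was not analysed here, and because the labels name no separate cultures behind the replicates, the p-values reflect the spread among these libraries alone, which may be technical.

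Deposited values were read as FPKM (fragments scaled for the length of the gene and the size of the library), a unit inferred from the values, and read depth is unknown. Column totals ran from 1598260 to 1687283 FPKM with 8OH-G miR-483 and from 1396537 to 1440422 FPKM with miR-483, and mitochondrial transcripts made up 74.6% to 76.6% of them with 8OH-G miR-483 and 71.3% to 76.2% with miR-483. A gene entered the test when 3 or more libraries reached 1 FPKM, and was fitted with limma on log2(FPKM + 1), a scale that understates the change of low genes, and the adjusted p was taken over all 12202 genes tested. The background was large: 55.5% of these genes passed an adjusted p of 0.05, 35.1% as higher and 20.4% as lower with 8OH-G miR-483, and the median gene was 0.10 log2 higher. Median-ratio scaling between libraries gave 27.3% higher and 27.2% lower, and quantile normalization 27% and 28%.

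Most endothelial markers were abundant in both groups, with the junction gene CDH5 at 267 ± 20.8 FPKM with 8OH-G miR-483 and 381 ± 8.96 FPKM with miR-483 (mean ± SD, n = 3 libraries per group throughout). The lowest of them, CD34, was at 8.35 ± 1.48 FPKM with 8OH-G miR-483 and 6.73 ± 0.203 FPKM with miR-483. Mural and fibroblast markers were low, and leukocyte markers less so. Of 10 mural cell markers, NOTCH3 was the one used, at 0.0838 to 0.0954 FPKM with 8OH-G miR-483 and 0.0945 to 0.175 FPKM with miR-483. The 5 fibroblast markers measured of 7 listed (COL1A2, DCN, LUM, PDGFRA and FAP) summed to 1.68 to 2.54 FPKM with 8OH-G miR-483 and 1.48 to 1.80 FPKM with miR-483, and LUM was listed at 0 in miR-483 replicate 3. The 2 leukocyte markers measured of 7, LYZ and CD68, summed to 6.49 to 7.79 FPKM with 8OH-G miR-483 and 14.2 to 17.7 FPKM with miR-483, most of it CD68, and LYZ was listed at 0 in 8OH-G miR-483 replicate 2. The 5 epithelial markers listed were not analysed here.

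The transition genes did not move together. With 8OH-G miR-483, S100A4 fell 7.15-fold in mean FPKM, ZEB2 rose 1.58-fold and SNAI2 rose 1.35-fold, while SNAI1, ZEB1, VIM, ACTA2 and TAGLN did not pass the test. Of the 8 genes tested, 2 were higher and 1 lower, against 35.1% and 20.4% of all genes, so the share called was not above the background. Their median difference was 0.06 log2, beside 0.10 log2 for all genes tested. S100A4 passed the filter on low values in all libraries of both groups, as did the other 7.

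**Figure D1:**
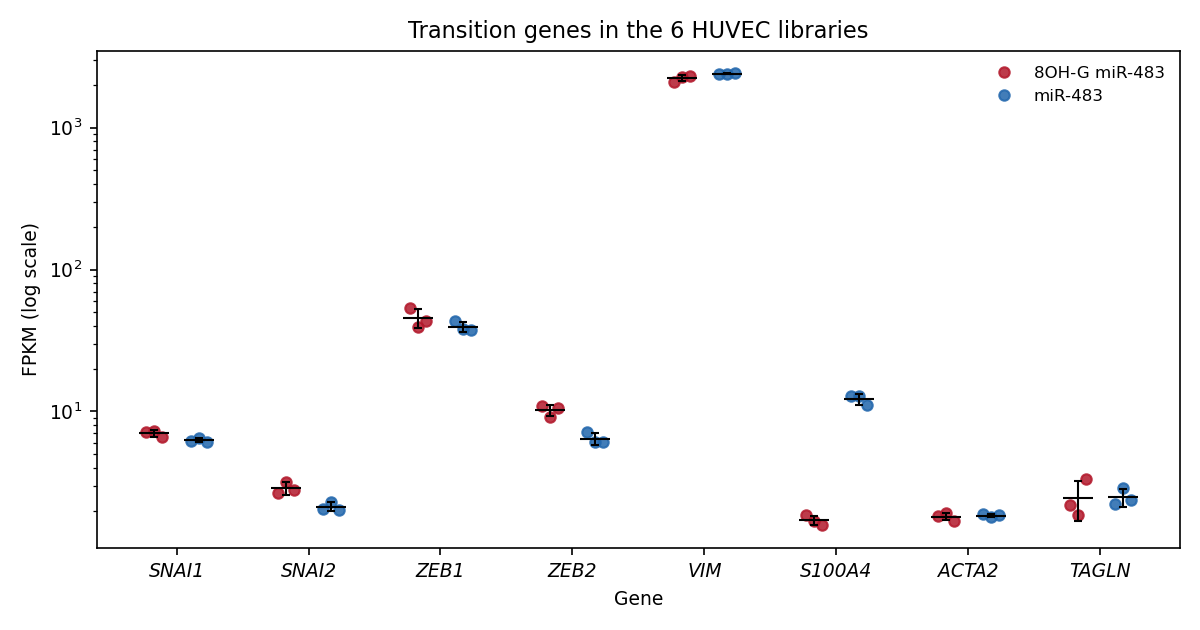
FPKM on a log scale for the 8 transition genes, with 1 point per library and the mean ± SD of 3 libraries as black bars, 8OH-G miR-483 to the left of miR-483. S100A4 lies at 1.59 to 1.85 FPKM with 8OH-G miR-483 and at 11.02 to 12.9 FPKM with miR-483, and no other gene shows a gap of that size.

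**Figure D2:**
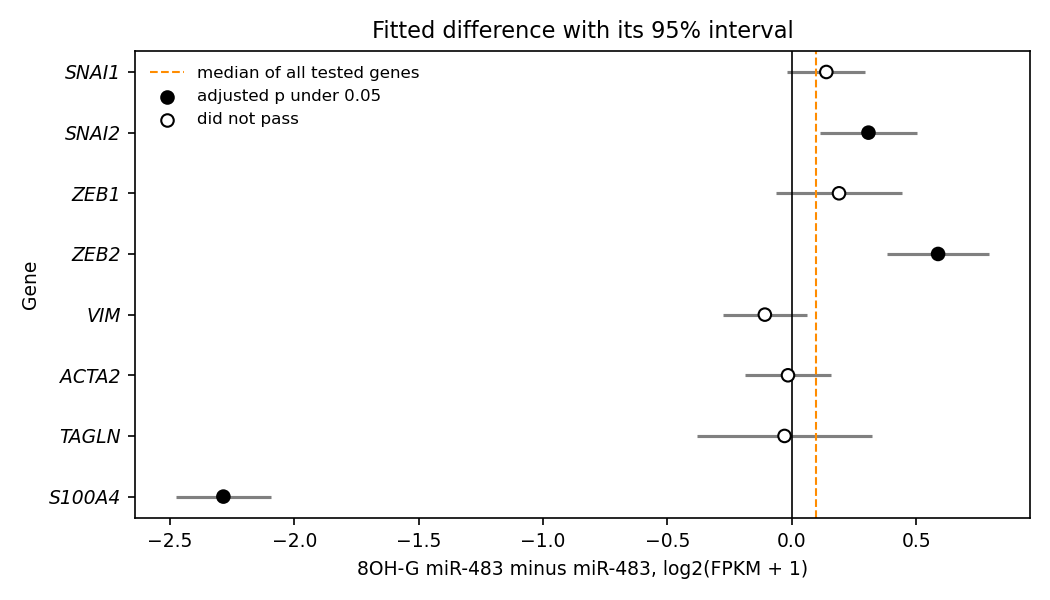
Fitted difference between 8OH-G miR-483 and miR-483 on the log2(FPKM + 1) scale for each gene (points) with its 95% interval (grey lines). Filled points passed an adjusted p of 0.05 in limma. S100A4 stands at -2.29, ZEB2 at 0.59 and SNAI2 at 0.31, with the median of all tested genes (dashed) at 0.10.

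S100A4, also called fibroblast-specific protein 1, encodes a small calcium-binding protein that binds non-muscle myosin IIA and is a common marker of mesenchymal and of some myeloid cells. It was measured at 1.85, 1.69 and 1.59 FPKM in the 3 libraries with 8OH-G miR-483, against 12.9, 12.8 and 11.02 FPKM in those with miR-483. The groups were far apart, with the highest 8OH-G miR-483 library well below the lowest miR-483 library. The log2 difference was -2.29 (SE 0.084, 95% interval -2.48 to -2.09, limma adjusted p = 7.58e-07), the 32nd most negative of the 12202 genes tested. In level, S100A4 stood above 10.6% of tested genes with 8OH-G miR-483 and above 60.5% of them with miR-483. Its 8OH-G miR-483 level was close to the filter of 1 FPKM and read depth is unknown, so the size of the fall is uncertain. On a log2 scale with a pseudocount of 0.1 in place of 1, the difference was -2.77. LYZ, a lysozyme gene of myeloid cells, was at 0.147, 0 and 0.179 FPKM with 8OH-G miR-483 and 3.66, 4.32 and 4.10 FPKM with miR-483. It entered the test through its miR-483 libraries alone, so it had to differ. CD68 was also lower, at 7.15 ± 0.760 FPKM with 8OH-G miR-483 and 11.9 ± 1.85 FPKM with miR-483. The part of these markers in the S100A4 result was not tested. In bulk libraries, fewer cells that make a transcript and less of it per cell cannot be told apart.

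The promoter windows of the most changed gene and of the ZEB factor that rose are shown because Snail and ZEB proteins bind the E-box CAGGTG. RefSeq windows (build GRCh38.p14, 250 bases before to 50 after the gene start, gene strand) were found for 5 of the 8 genes. Bases in capitals mark CAGGTG or its reverse complement CACCTG, searched on both strands. S100A4 lies on the minus strand at chr1:153545757-153546056 and ZEB2 on the minus strand at chr2:144520070-144520369.
S100A4: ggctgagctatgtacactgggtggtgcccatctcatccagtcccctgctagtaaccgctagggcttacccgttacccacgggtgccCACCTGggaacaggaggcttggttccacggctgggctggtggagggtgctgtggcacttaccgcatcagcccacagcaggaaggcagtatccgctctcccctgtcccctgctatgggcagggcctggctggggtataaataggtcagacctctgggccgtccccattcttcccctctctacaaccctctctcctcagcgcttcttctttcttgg
ZEB2: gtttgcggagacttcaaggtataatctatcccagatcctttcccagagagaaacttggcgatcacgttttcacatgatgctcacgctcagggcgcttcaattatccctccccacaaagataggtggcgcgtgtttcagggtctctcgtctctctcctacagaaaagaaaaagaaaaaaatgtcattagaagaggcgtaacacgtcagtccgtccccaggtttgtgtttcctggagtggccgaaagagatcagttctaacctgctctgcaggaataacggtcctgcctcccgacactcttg
The S100A4 window held 1 such E-box, starting at position -164 from the gene start, and the ZEB2 window held 0, as did those of VIM and ACTA2. ZEB1, which has several starts, held 1 in a window (at -57) and 3 in another (at -242, -85 and 34), and did not pass the test. This hexamer occurred in 20.6% of all 35116 windows of this length. The CArG box, the serum response factor motif of smooth muscle genes, was searched in its strict form CCWWWWWWGG, with W being A or T. That form was in none of the windows of these 5 genes and in 1.29% of all windows. Looser forms were not searched for, and an ACTA2 window held ccctatatgg and ccttgtttgg, each 1 base away from the strict form. A match is a description of these letters and not a measured binding site.

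S100A4 belongs to a cluster of S100 genes on chromosome 1. Of 7 other S100 genes tested, 5 fell and 0 rose, beside 20.4% of all genes lower, and their median was -0.44 log2. The counts were the same after either scaling, where 27.2% (median-ratio) and 28% (quantile) of all genes were lower. S100A10, the annexin A2 partner, was measured at 142, 151 and 146 FPKM with 8OH-G miR-483 and at 303, 365 and 323 FPKM with miR-483, a difference of -1.17 log2 (SE 0.083, limma adjusted p = 1.04e-05). S100A6, calcyclin, had 892, 928 and 831 FPKM with 8OH-G miR-483 and 1660, 1961 and 1866 FPKM with miR-483 (-1.05 log2, SE 0.089, limma adjusted p = 2.45e-05). Both genes were picked among called genes with groups that did not overlap. Their falls were 2.26-fold and 2.07-fold where that of S100A4 was 7.15-fold. S100A4 was at 1.59 to 1.85 FPKM with 8OH-G miR-483, near the filter of 1 FPKM, so its fold is less certain. S100A11 fell 1.26-fold. S100A16 and S100A2, named after their values were seen, did not pass and stood at 384 ± 46.5 and 4.70 ± 0.140 FPKM with 8OH-G miR-483 and 399 ± 38.0 and 4.51 ± 0.960 FPKM with miR-483. Without miR-483 replicate 2, 3 of the 7 passed as lower. The ratio of S100A6 to S100A4 within a library was 482 to 548 with 8OH-G miR-483 and 129 to 169 with miR-483.

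**Figure D3:**
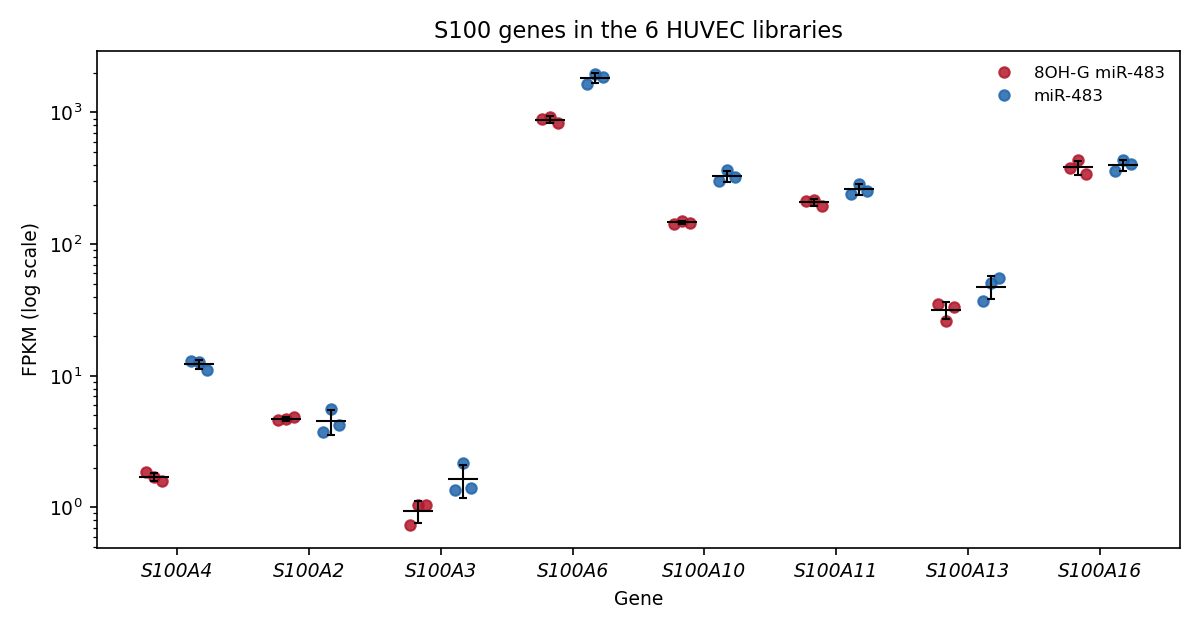
FPKM on a log scale for S100A4 and the 7 related S100 genes, with 1 point per library, the mean ± SD of 3 libraries as black bars and 8OH-G miR-483 to the left of miR-483. S100A4, S100A6 and S100A10 are lower with 8OH-G miR-483 in every library, which the choice of S100A6 and S100A10 required. S100A2 and S100A16 overlap between groups.

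Among the transcription factors, ZEB1 was the most abundant in every library and ZEB2 changed the most. ZEB2, a zinc finger repressor that also binds SMAD proteins, was measured at 10.9, 9.14 and 10.5 FPKM with 8OH-G miR-483, against 7.12, 6.11 and 6.09 FPKM with miR-483. All 3 libraries with 8OH-G miR-483 lay above all 3 with miR-483. The difference was 0.59 log2 (SE 0.090, 95% interval 0.38 to 0.79, limma adjusted p = 0.000648), or 0.49 log2 beyond the median gene. ZEB1, its close relative, had 53.2, 39.6 and 43.6 FPKM with 8OH-G miR-483 and 43.2, 37.9 and 37.5 FPKM with miR-483. The ZEB1 groups overlapped, and its difference of 0.19 log2 had a 95% interval of -0.06 to 0.44 (limma adjusted p = 0.177). The ratio of ZEB1 to ZEB2 was 4.87, 4.33 and 4.15 with 8OH-G miR-483 and 6.06, 6.20 and 6.16 with miR-483, so the 2 groups did not overlap in this ratio, which was not tested.

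SNAI2, or Slug, was low in all libraries, with 2.66, 3.20 and 2.79 FPKM with 8OH-G miR-483, against 2.05, 2.31 and 2.03 FPKM with miR-483. The groups did not overlap, and the difference was 0.31 log2 (SE 0.086, 95% interval 0.11 to 0.50, limma adjusted p = 0.0145). The call was lost after quantile normalization (adjusted p = 0.111) and without miR-483 replicate 3 (adjusted p = 0.0535). SNAI1, or Snail, was at 7.17, 7.25 and 6.60 FPKM with 8OH-G miR-483 and at 6.21, 6.50 and 6.10 FPKM with miR-483. Its groups did not overlap either, but the gap was narrow and the difference of 0.14 log2 did not pass (95% interval -0.02 to 0.30, limma adjusted p = 0.116). After quantile normalization SNAI1 was at -0.03 log2, so its direction depends on the scaling. Summed over SNAI1, SNAI2, ZEB1 and ZEB2, levels were 59.2 to 73.9 FPKM with 8OH-G miR-483 and 51.7 to 58.5 FPKM with miR-483, and ZEB1 made up 69.2% ± 2.56 of that sum with 8OH-G miR-483 and 72.7% ± 0.994 with miR-483.

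VIM, which encodes the intermediate filament protein vimentin, was among the most abundant transcripts, above 99.9% of tested genes in each group. It was measured at 2105, 2293 and 2307 FPKM with 8OH-G miR-483, against 2405, 2398 and 2417 FPKM with miR-483. Every 8OH-G miR-483 library was below every miR-483 library, by a small amount, and the difference of -0.11 log2 did not pass as deposited (SE 0.073, 95% interval -0.28 to 0.06, limma adjusted p = 0.241). It passed as lower after median-ratio scaling (-0.22 log2, adjusted p = 0.0276) and after quantile normalization (-0.21 log2, adjusted p = 0.0182), which shift the median of all genes by -0.10 and -0.11. VIM-AS1, the antisense neighbour, ran from 1.66 to 13.4 FPKM with 8OH-G miR-483 and from 3.44 to 9.28 FPKM with miR-483, and with no word on strand in the labels, reads of the 2 genes cannot be told apart. ZEB1-AS1 was at 3.42 ± 0.586 FPKM with 8OH-G miR-483 and 3.65 ± 1.15 FPKM with miR-483, and neither antisense gene passed.

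Of the partners of vimentin tested, the filament genes NES and SYNM rose and PLEC, the linker plectin, fell. NES, nestin, had 63.3, 67.4 and 61.9 FPKM with 8OH-G miR-483 and 31.8, 34.9 and 34.2 FPKM with miR-483 (0.91 log2, SE 0.067, limma adjusted p = 1.19e-05). SYNM, synemin, rose 1.46-fold and PLEC fell 1.27-fold. The 3 genes tested thus moved in both directions, beside 35.1% of all genes higher and 20.4% lower.

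The contractile genes among the 8 were close to the filter of 1 FPKM and did not differ between groups beyond their spread. ACTA2, alpha smooth muscle actin, had 1.84, 1.91 and 1.70 FPKM with 8OH-G miR-483, against 1.88, 1.80 and 1.86 FPKM with miR-483, a level above 11.6% of tested genes with 8OH-G miR-483 and 13.1% with miR-483. The 2 groups overlapped, and the difference of -0.01 log2 had a 95% interval of -0.19 to 0.16 (limma adjusted p = 0.876). ACTA2 resembles other actin genes in coding sequence, so reads at this low level are uncertain. Whether reads were shared among these genes was not tested. TAGLN, transgelin or SM22-alpha, had 2.20, 1.85 and 3.33 FPKM with 8OH-G miR-483 and 2.21, 2.88 and 2.36 FPKM with miR-483. Its 8OH-G miR-483 libraries ranged from below the lowest to above the highest miR-483 library, and its interval was wider, at -0.38 to 0.32 log2 around -0.03 (limma adjusted p = 0.883). TAGLN is therefore too low and too variable here for a difference inside that interval to be read, and direction in ACTA2 and TAGLN changed with the library left out.

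Of 19 contractile and actin-binding genes listed besides the 8, 14 were tested, of which 9 rose and 1 fell, beside 35.1% of all genes higher and 20.4% lower. Median-ratio scaling left 6 higher and 2 lower, beside 27.3% and 27.2% of all genes, and quantile normalization 7 higher and 2 lower, beside 27% and 28%. Their median difference was 0.34 log2. SMTN, smoothelin, had 68.2, 68.8 and 77.8 FPKM with 8OH-G miR-483 and 25.5, 26.5 and 32.1 FPKM with miR-483 (1.33 log2, SE 0.098, limma adjusted p = 1.21e-05). TPM1, an actin-coating tropomyosin, had 124, 135 and 141 FPKM with 8OH-G miR-483 and 66.8, 69.5 and 66.8 FPKM with miR-483 (0.97 log2, SE 0.071, limma adjusted p = 1.2e-05). CALD1, caldesmon, rose 1.97-fold to 93.0 ± 6.40 FPKM with 8OH-G miR-483, against 47.2 ± 2.33 FPKM with miR-483. These 3 genes were picked among called genes with groups that did not overlap. They are expressed in non-muscle cells as well as in smooth muscle. ACTN1, the actin cross-linker alpha-actinin-1, fell to 204 ± 13.4 FPKM with 8OH-G miR-483, against 300 ± 8.76 FPKM with miR-483.

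The close relatives of the measured and unmeasured contractile genes, named after their values were seen, gave no single pattern. TAGLN2 was at 318 ± 16.1 FPKM with 8OH-G miR-483 and 304 ± 19.5 FPKM with miR-483 and did not pass (limma adjusted p = 0.511). The calponins CNN2 and CNN3 rose 1.45-fold and 1.22-fold, with limma adjusted p of 0.000129 and 0.0355. MYL9, the regulatory light chain of smooth muscle myosin, rose to 4.23 ± 0.336 FPKM with 8OH-G miR-483, against 2.80 ± 0.855 FPKM with miR-483 (limma adjusted p = 0.0249). SRF, the factor that binds CArG boxes, was at 10.8, 10.6 and 10.4 FPKM with 8OH-G miR-483 and 8.20, 9.03 and 9.73 FPKM with miR-483. Its rise of 0.22 log2 (limma adjusted p = 0.0355) was lost after median-ratio scaling (0.219), after quantile normalization (0.397) and on leaving out any library other than miR-483 replicate 3 (0.0572 to 0.122). Its coactivators MKL1 and MKL2 did not pass, at 13.5 ± 1.34 and 4.14 ± 0.550 FPKM with 8OH-G miR-483 and 16.03 ± 2.53 and 4.06 ± 0.461 FPKM with miR-483.

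Other transcription factors linked to epithelial or endothelial to mesenchymal transition included rises above that of ZEB2. Of 14 listed, 8 were tested, 4 rose and 1 fell, with a median of 0.20 log2, beside 35.1% of all genes higher and 20.4% lower. Either scaling left 3 higher and 2 lower, close to the share of all genes under that scaling. RUNX1, a factor of the endothelial to haematopoietic transition, had 7.52, 5.77 and 9.90 FPKM with 8OH-G miR-483 and 1.88, 1.74 and 1.82 FPKM with miR-483 (1.61 log2, SE 0.153, limma adjusted p = 4.6e-05). HMGA2, an architectural chromatin protein, had 46.2, 44.0 and 55.1 FPKM with 8OH-G miR-483 and 18.2, 17.9 and 18.2 FPKM with miR-483 (1.37 log2, SE 0.087, limma adjusted p = 6.1e-06). Both were picked among called genes with groups that did not overlap, and RUNX1 varied widely among the 8OH-G miR-483 libraries. FOXC2, a forkhead factor, rose 1.34-fold, and PRRX1, a mesenchymal homeobox factor, fell to 1.60 ± 0.186 FPKM with 8OH-G miR-483, against 2.55 ± 0.268 FPKM with miR-483. TWIST2, the relative of TWIST1 and named after its value was seen, was at 5.69, 5.83 and 5.75 FPKM with 8OH-G miR-483 and 6.41, 5.89 and 6.87 FPKM with miR-483 and did not pass (limma adjusted p = 0.172). SNAI3 and MSX1 were below the filter, at 0.261 to 0.884 FPKM with 8OH-G miR-483 and 0.369 to 0.696 FPKM with miR-483, and are too low to read.

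**Figure D4:**
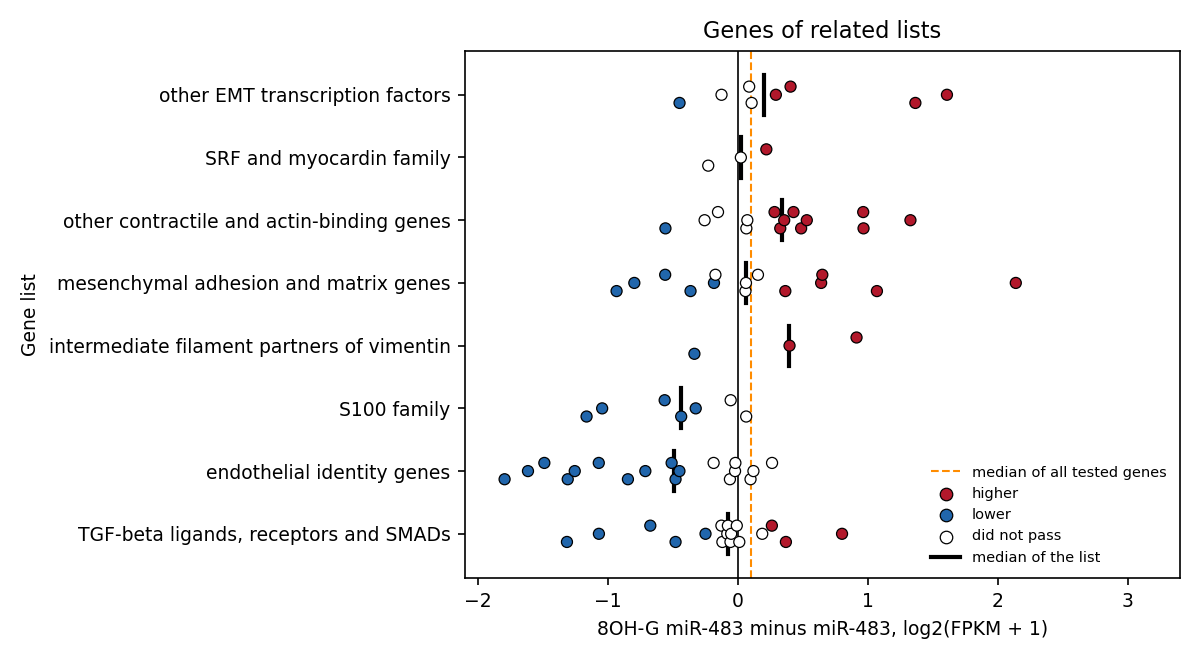
Fitted difference between 8OH-G miR-483 and miR-483 on the log2(FPKM + 1) scale for each tested gene (points) of 8 lists, with the list median (black bar) and the median of all 12202 genes (dashed). Contractile and actin-binding genes lie mostly to the right, S100 and endothelial identity genes to the left, and matrix and TGF-beta genes on both sides.

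Of 21 mesenchymal adhesion and matrix genes listed, 14 were tested, 5 rose and 5 fell, with a median of 0.06 log2. The share that rose was close to the 35.1% of all genes, and 20.4% of all genes fell. Median-ratio scaling gave 4 higher and 6 lower, beside 27.3% and 27.2% of all genes. Quantile normalization gave 4 higher and 5 lower, beside 27% and 28%. CD44, the hyaluronan receptor, had 94.5, 86.9 and 133 FPKM with 8OH-G miR-483 and 22.4, 22.8 and 22.7 FPKM with miR-483, a rise of 2.14 log2 (SE 0.140, limma adjusted p = 6.95e-06). CDH2, N-cadherin, rose 2.22-fold and had 21.1, 19.1 and 24.7 FPKM with 8OH-G miR-483 and 10.02, 9.52 and 9.61 FPKM with miR-483. CDH11, the mesenchymal cadherin, moved opposite to CDH2, with 25.7, 20.8 and 32.3 FPKM with 8OH-G miR-483 and 52.4, 47.6 and 51.2 FPKM with miR-483 (-0.94 log2, SE 0.137, limma adjusted p = 0.000524). MMP2, gelatinase A, fell 1.74-fold and COL3A1, the type III collagen chain, fell 1.85-fold to 1.26 ± 0.0851 FPKM with 8OH-G miR-483, against 2.33 ± 0.0651 FPKM with miR-483. FN1, fibronectin, did not pass, at 438 ± 34.9 FPKM with 8OH-G miR-483 and 494 ± 35.8 FPKM with miR-483. COL1A2 was below the filter, at 0.129 to 0.173 FPKM with 8OH-G miR-483 and 0.396 to 0.472 FPKM with miR-483. FN1 and COL1A2 were named after their values were seen.

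Endothelial identity genes, the other side of the transition, fell in 11 of 18 tested cases and rose in 0, beside 20.4% of all genes lower, with a median of -0.50 log2. After median-ratio scaling 12 were lower, beside 27.2% of all genes. TEK, the angiopoietin receptor, had 24.6, 23.7 and 23.9 FPKM with 8OH-G miR-483 and 90.2, 83.7 and 84.5 FPKM with miR-483. NOS3, endothelial nitric oxide synthase, fell 2.41-fold and PLVAP, the diaphragm protein, fell 2.97-fold. The 7 genes that did not pass included KDR and ERG, named after their values were seen, with 62.0 ± 7.46 and 72.7 ± 3.71 FPKM with 8OH-G miR-483 and 62.6 ± 0.799 and 66.9 ± 4.35 FPKM with miR-483. Set against junction genes within each library, VIM was 15.6, 17.6 and 22.8 times PECAM1 with 8OH-G miR-483 and 11.2, 11.04 and 10.7 times PECAM1 with miR-483. The ratio of VIM to CDH5 was 7.42, 8.35 and 9.45 with 8OH-G miR-483 and 6.16, 6.44 and 6.37 with miR-483. Both ratios were higher in every 8OH-G miR-483 library, with VIM itself slightly lower and PECAM1 and CDH5 down 1.79-fold and 1.42-fold.

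TGF-beta is the main inducer of the transition. Of 17 genes of its pathway tested, 3 rose and 5 fell, with a median of -0.08 log2, beside 35.1% of all genes higher and 20.4% lower. One of those that rose, TGFB2, entered the test through its 8OH-G miR-483 libraries alone, so it had to differ. Median-ratio scaling gave 2 higher and 7 lower, beside 27.3% and 27.2% of all genes. Quantile normalization gave 3 higher and 7 lower, beside 27% and 28%. Among ligands, TGFB2 was at 1.45, 1.37 and 2.26 FPKM with 8OH-G miR-483 and at 0.637, 0.357 and 0.610 FPKM with miR-483. TGFB1, named after its value was seen, was far more abundant and did not pass, at 191 ± 25.7 FPKM with 8OH-G miR-483 and 197 ± 4.21 FPKM with miR-483. Among receptors, TGFBR2 rose 1.20-fold, a call lost after median-ratio scaling (limma adjusted p = 0.107), and ACVRL1, the endothelial type I receptor ALK1, fell to 106 ± 8.94 FPKM with 8OH-G miR-483, against 170 ± 3.24 FPKM with miR-483. SMAD3, a signal transducer, had 63.8, 58.4 and 67.9 FPKM with 8OH-G miR-483 and 50.2, 45.6 and 50.6 FPKM with miR-483. Both inhibitory SMADs were lower, and groups that did not overlap were a condition of naming them. SMAD7 was at 1.68, 1.80 and 1.79 FPKM with 8OH-G miR-483 and at 5.57, 6.14 and 5.91 FPKM with miR-483, and SMAD6 fell 2.20-fold.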

How the data were processed

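Values from RNA sequencing of 6 HUVEC libraries were analysed. The build listed is hg19 and the tools are STAR, cutadapt, HTSeq and DESeq2, without versions, roles or order, per the submitters' processing notes. Every deposited file gives 1 decimal value for each of 20792 rows, read as FPKM made by the authors, since totals are too large for TPM or CPM, and FPKM times GENCODE exon length over 13987 nuclear genes gave nearly equal sums across libraries. Low values were searched for whole-read steps: 29.8% of 208 low genes matched a ratio of small whole numbers (tolerance 0.05 log2) under the best assumed depth ratio and 21.2% under the median one. Counts were therefore not recovered, and no counting interval is given.

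Names occurred more than once on 3204 rows (748 names), which were left out. Names had turned into dates on 24 rows, 9 of them among the repeated names, and the other 15 were left out too. In miR-483 replicate 1, unlike the other libraries, most repeated names held more than 1 value. Of 17573 genes, 12202 reached 1 FPKM in 3 or more libraries. Their log2(FPKM + 1) values were fitted by group in limma (3.58.1, R 4.3.3, with trend and robust options), as 8OH-G miR-483 minus miR-483, and p-values were adjusted by Benjamini-Hochberg over all of them and called under 0.05. The fit was tested on simulated data. An N-fold change is the ratio of the group means in FPKM.

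The members, lists and tests were chosen with earlier results of these data known. Named genes are the 8 measured members and, of each related list, up to 3 higher and 3 lower genes with the smallest adjusted p among those called with groups that did not overlap. Some genes of these lists are not reported by name here. List genes were matched by symbol or older symbol, and those without a row of their own were not analysed here. Promoter windows are RefSeq's, on GRCh38.p14, another build than that of the files. The mature miR-483 was not used here as a sequence. Alternatives covered the pseudocount, filters, scaling, a replicate block, each library left out, repeated names and the variance model. Figures were drawn with matplotlib 3.10.9.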

Additional observations from a re-analysis of the deposited data

How the results depend on the processing

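Under 14 alternatives, S100A4 stayed lower and ZEB2 stayed higher in each, with log2 differences of -2.77 to -2.25 (limma adjusted p at most 1.24e-05) and 0.43 to 0.66 (at most 0.00381). SNAI2 passed in 12 of 14, with a difference of 0.18 to 0.42. The number of transition genes called lower was 2 with median-ratio scaling and 2 with quantile normalization, VIM being the gene added, and the number called higher was 1 with quantile normalization, which lost SNAI2. Leaving out 1 library at a time gave 1 to 2 higher and 1 lower, the count of 1 higher being the fit without miR-483 replicate 3. SNAI1, ACTA2 and TAGLN passed in none of the 14, with adjusted p of 0.0699 to 0.759, 0.349 to 0.960 and 0.168 to 0.947. The share of higher genes among all calls was 63.2% as deposited, 50.05% with median-ratio scaling and 49.05% with quantile normalization.

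Replicate numbers were not used to pair the libraries in the main fit. Deviations of same-numbered libraries from their group means correlated at 0.025, 0.339 and 0.0087 across genes. Those of unlike-numbered libraries correlated at -0.266 to 0.244, so these values do not settle whether the numbers pair the libraries. With a replicate block, 7308 genes passed in place of 6769, 3 transition genes were higher and 1 lower, the gene added being ZEB1 (adjusted p = 0.0439). Read depth is unknown, which limits what can be said of genes near 1 FPKM.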
